A study of Rattus norvegicus with 12 samples.

Results

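After 8 h of SIN-1, the expression of 18166 named genes was compared with that of control cells in cultures labelled as primary rat cardiomyocytes, and 5 genes differed. The comparison took the 3 arrays labelled 8 h and the 3 labelled control, which are 6 of the 12 arrays of a time course. Each gene with a single symbol in the platform's probe table entered it, by the probe with the highest mean over the 12 arrays. The other arrays were 3 of cells treated for 70 min and 3 of cells treated for 4 h. SIN-1 (3-morpholinosydnonimine) breaks down in solution into nitric oxide and superoxide, which combine to peroxynitrite. All cells were labelled wild type and were grown in a medium with fetal bovine and horse serum. The sources used here give no dose of SIN-1, strain or age of the animals, and for the control neither a culture time nor a vehicle. A difference from control can therefore hold an effect of culture time or vehicle, and these cannot be told apart from SIN-1. Per the design text, each group's 3 arrays are biological replicates. Where replicates did not come from separate cultures, the p-values measure only the spread between these samples.

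Values are log2 expression from one-colour whole-transcript arrays, so a difference of 1 is a 2-fold change. Levels of different genes come from different probes, which limits the ranking of cell type markers among all genes below. Other levels were not set against each other as amounts. Correlations across genes between arrays of the same group ran from 0.9938 to 0.9945 in the control and from 0.9923 to 0.995 at 8 h. The array medians over all probes were 5.0 to 5.05 in the control and 4.99 to 5.01 at 8 h, while 70 min replicates 2 and 3 and 4 h replicate 3 had medians of 5.09 to 5.12. Precision is limited by the number of arrays.

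Most markers of heart muscle cells went against the cell label. In the control arrays, 14 of 19 tested sarcomere and cardiomyocyte markers were below the median of all genes (5.76). Myh6, the alpha myosin heavy chain, was at 3.99 ± 0.15, the cardiac troponin T gene Tnnt2 at 5.99 ± 0.11, the alpha-actinin gene Actn2 at 4.25 ± 0.11 and the titin gene Ttn at 4.46 ± 0.06 (SD, n = 3 each). The 5 markers above the median were Tpm1, a tropomyosin gene (9.42 ± 0.07, the one above the 90th percentile), Pln, the phospholamban gene (8.16 ± 0.18), the troponin C gene Tnnc1 (7.22 ± 0.04), the Z-disc gene Ldb3 (6.17 ± 0.05) and Tnnt2. Myl2, Myl4, Actc1 and Tcap were not tested here. Of 18 fibroblast markers, 12 were at or above the 90th percentile, among them Col1a1 (12.75 ± 0.02) and Postn (11.68 ± 0.02), and 3 of 10 smooth muscle and pericyte markers were, among them Tagln (12.4 ± 0.05). In the fibroblast list 2 were below the median of all genes, Tcf21 (4.75 ± 0.25) and Fap (4.05 ± 0.19). The smooth muscle and pericyte list also had 2 below it, Myh11 (5.59 ± 0.11) and Des (5.19 ± 0.26). Of 10 endothelial markers 8 were below the median of all genes, and of 16 macrophage and leukocyte markers 14. The results below are therefore those of cultures labelled as cardiomyocytes. The mean level of the cardiomyocyte list was 5.12 to 5.24 in the control arrays and 5.11 to 5.22 at 8 h. That of the fibroblast list was 9.51 to 9.57 and 9.50 to 9.61. Limma called none of the 93 tested markers of the 8 cell type lists at 8 h. At an unadjusted p under 0.05, 3 were higher and 2 lower, where 2.97% and 2.49% of all genes were. In such bulk samples, fewer cells of a type and less RNA per cell cannot be told apart.

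Cells answer oxidants and electrophiles through NRF2, a transcription factor that its partner KEAP1 normally sends for degradation. When the cysteines of KEAP1 are modified, NRF2 accumulates and binds antioxidant response elements in the promoters and enhancers of genes for glutathione supply, quinone and aldehyde reduction, heme breakdown and conjugate export. The immediate early genes, by contrast, encode unstable transcripts that are made and lost rapidly after a stimulus.

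Of the 18166 genes, 5 differed from control at 8 h by limma's moderated test with a Benjamini-Hochberg adjusted p under 0.05, which is 0.0275% of the genes tested. The 4 genes that rose (0.022%) were Abcc4, Ptgr1, Hmox1 and Nqo1, all of which belong to a list of 30 NRF2 targets. The 1 gene that fell (0.0055%) was Olr1. At an unadjusted p under 0.05 there were 993 genes, or 5.47%, with 540 higher and 453 lower. The same fit called 699 genes (3.85%) at 4 h and 2647 (14.6%) at 70 min against the same 3 control arrays. Set against the earlier times directly, 637 genes (3.51%) had another level at 8 h than at 4 h and 2904 (16%) than at 70 min; the first count was 299 without 8 h replicate 2, and the second was 1181 without the 3 arrays of highest median.

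The spread between arrays sets how large a change could still lie within these values. The median standard error of a log2 fold change was 0.131, which gives a 95% interval of 0.276 on either side. For 16595 genes (91.4%) that whole interval lay within a 1.5-fold change in either direction, and for 18057 genes (99.4%) within a 2-fold change. Among the 9083 genes in the brighter part of the range, 8717 (96%) had intervals within 1.5-fold. The fold changes themselves reached 1.5-fold in 74 genes and 2-fold in 1 gene, Olr1, whereas they reached 2-fold in 17 genes at 4 h and in 115 at 70 min. Of 68 genes with at least a 1.5-fold change and an unadjusted p under 0.05 at 8 h, 12 were higher and 56 lower. The count of 5 fell to 2, Abcc4 and Olr1, in a fit without a trend in the prior variance and rose to 37 with array weights, which gave 8 h replicate 2 a weight of 2.41 against 0.72 and 1.02 for the other 8 h arrays.

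**Figure D1:**
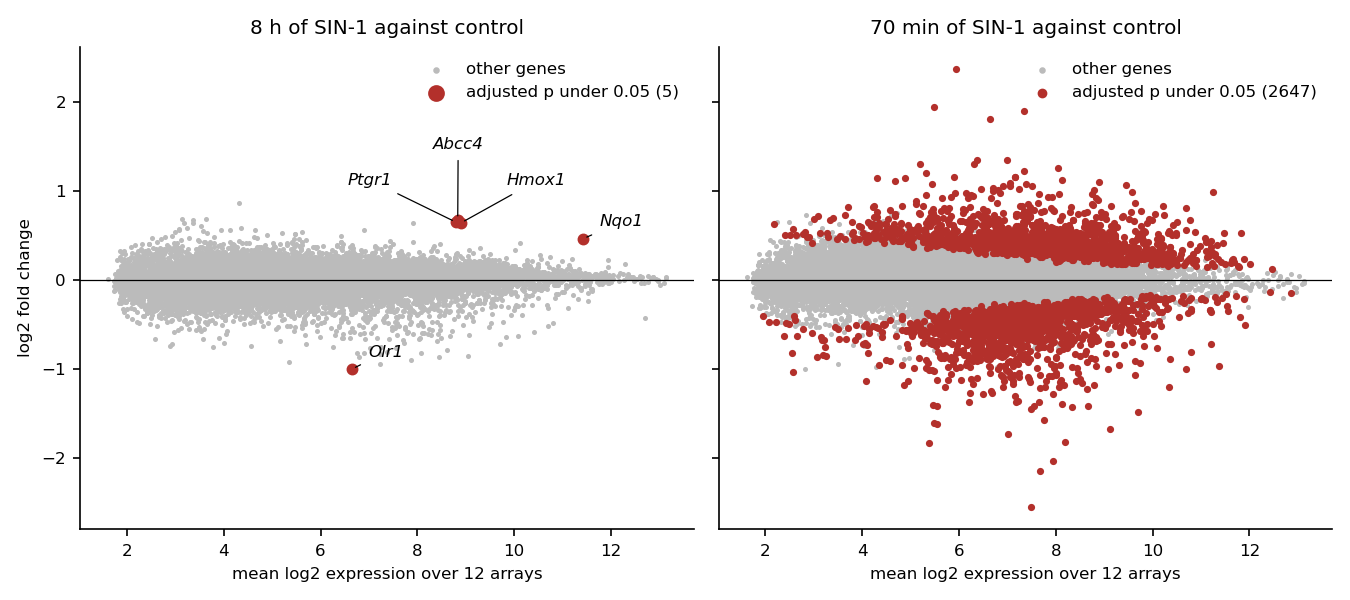
Log2 fold change (vertical axis) of the 18166 genes against their mean log2 expression over 12 arrays (horizontal axis), after 8 h (left) and 70 min (right) of SIN-1, each against the same 3 control arrays. Red points are the genes with an adjusted p under 0.05, 5 at 8 h and 2647 at 70 min; at 8 h most grey points lie close to 0 and the called genes are named.

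Nqo1 and Olr1 were the called genes of opposite direction for which a promoter window is printed, so that a reader can see the sequence before the start sites whose transcripts differed. Each line gives the 250 bases before the annotated start from RefSeq on the rat assembly GRCr8, 5′ to 3′ along the gene's strand, which is the minus strand for both. Nqo1 lies on chromosome 19 (chr19:52220268-52220517) and Olr1 on chromosome 4 (chr4:164634548-164634797). Capitals mark CCAAT, the NF-Y motif, and CACGC, the reverse complement of GCGTG, the core of the xenobiotic response element that the aryl hydrocarbon receptor binds.
Nqo1: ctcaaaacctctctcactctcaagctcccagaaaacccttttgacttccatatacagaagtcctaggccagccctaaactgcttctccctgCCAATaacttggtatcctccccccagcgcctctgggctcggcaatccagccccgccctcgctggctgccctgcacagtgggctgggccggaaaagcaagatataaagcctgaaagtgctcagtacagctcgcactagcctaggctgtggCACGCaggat
Olr1: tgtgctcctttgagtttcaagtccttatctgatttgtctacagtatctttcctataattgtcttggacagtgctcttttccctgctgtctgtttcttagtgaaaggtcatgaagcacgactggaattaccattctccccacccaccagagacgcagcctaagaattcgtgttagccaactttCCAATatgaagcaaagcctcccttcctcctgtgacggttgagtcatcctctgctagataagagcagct
The Nqo1 window holds 1 match of each motif, and the Olr1 window 1 match of CCAAT. On either strand of all 33469 promoter windows of this length in the table, CCAAT occurs in 34% and GCGTG in 25.9%. The core of the antioxidant response element was searched as TGACNNNGC on both strands; it occurs in 10.1% of all windows and in neither of these, nor in the window of Abcc4, which holds 2 matches of GCGTG. For Hmox1 and Ptgr1, the other called genes, no window was available, so no motif was searched. Of 25 windows for 23 genes of the NRF2 list, 6 (24%) held TGACNNNGC. The response elements known for some of these genes lie farther from the start, and a match is a description of letters only.

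Nqo1 (gene ID 24314) encodes a quinone reductase that uses NADPH or NADH to reduce quinones fully. Its log2 levels were 11.19, 11.15 and 11.28 in the control arrays, 11.12, 11.07 and 11.19 at 70 min, 11.67, 11.71 and 11.67 at 4 h and 11.70, 11.64 and 11.66 at 8 h. The 8 h arrays all lay above the control arrays, at the level of the 4 h arrays. The rise at 8 h was 0.47 ± 0.04 on the log2 scale (SE; 95% interval 0.37 to 0.56), or 1.38-fold, with an adjusted p of 1.13e-04 by limma. It was 0.48 at 4 h. The difference between 8 h and 4 h was -0.01 (limma adjusted p = 0.944), and that between 8 h and 70 min was 0.54 (limma adjusted p = 2.46e-07).

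Hmox1 (gene ID 24451) encodes heme oxygenase 1, the inducible enzyme that opens heme to biliverdin, carbon monoxide and iron. Its levels were 8.43, 8.26 and 8.30 in the control, 9.56, 9.43 and 9.31 at 70 min, 8.97, 8.81 and 8.76 at 4 h and 9.08, 8.92 and 8.92 at 8 h. It was highest at 70 min, and the 8 h arrays lay between those and the control arrays without overlap with either. The rise at 8 h was 0.64 ± 0.08 (SE; 95% interval 0.47 to 0.81), or 1.56-fold, with a limma adjusted p of 0.00152. It stood beside 1.10 at 70 min and 0.52 at 4 h. From 70 min to 8 h the level fell by 0.46 (limma adjusted p = 6.66e-04), while 8 h and 4 h differed by 0.13 (limma adjusted p = 0.533).

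Abcc4 (gene ID 170924) encodes MRP4, a transporter that exports organic anions and cyclic nucleotides. Its levels were 8.74, 8.65 and 8.81 in the control, 8.09, 8.09 and 8.05 at 70 min, 9.18, 9.08 and 9.06 at 4 h and 9.45, 9.33 and 9.45 at 8 h. The 70 min arrays were the lowest and the 8 h arrays the highest, and the arrays of no 2 groups overlapped. At 8 h it was higher by 0.68 ± 0.07 (SE; 95% interval 0.54 to 0.82), or 1.60-fold, with a limma adjusted p of 1.13e-04. It had been 0.66 below control at 70 min on the log2 scale (a log2 fold change of -0.66, limma adjusted p = 3.14e-06) and 0.37 above it at 4 h. The level at 8 h exceeded that at 4 h by 0.30 (limma adjusted p = 0.014) and that at 70 min by 1.33 (limma adjusted p = 9.44e-10).

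Ptgr1 (gene ID 192227) encodes prostaglandin reductase 1, which inactivates leukotriene B4 and reduces reactive alkenals. In the control arrays it was at 8.75, 8.49 and 8.68, at 70 min at 8.28, 8.29 and 8.12, at 4 h at 9.02, 9.10 and 8.97 and at 8 h at 9.33, 9.30 and 9.25. The order of the groups was that of Abcc4, lowest at 70 min and highest at 8 h, again without overlap. The rise at 8 h was 0.65 ± 0.08 (SE; 95% interval 0.49 to 0.81), or 1.57-fold, with a limma adjusted p of 7.72e-04. The difference from control was -0.41 at 70 min (limma adjusted p = 0.00114) and 0.39 at 4 h. Between 8 h and 4 h it differed by 0.26 (limma adjusted p = 0.0727), and between 8 h and 70 min by 1.07 (limma adjusted p = 6.49e-08).

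Olr1 (gene ID 140914) encodes LOX-1, a scavenger receptor for oxidised low-density lipoprotein. It was the 1 gene that fell, and it had the largest change among the called genes. Its levels were 6.56, 6.40 and 6.67 in the control, 8.45, 8.24 and 8.38 at 70 min, 6.23, 6.18 and 5.98 at 4 h and 5.48, 5.72 and 5.43 at 8 h. The 70 min arrays were far above the control arrays, and the 8 h arrays were below those of every other group. At 8 h it fell by 1.0 ± 0.11 (SE; 95% interval -1.24 to -0.76), a 2-fold decrease, with a limma adjusted p of 5.51e-04. At 70 min it had been 1.81 above control (limma adjusted p = 1.42e-08) and at 4 h the difference was -0.41 (limma adjusted p = 0.0499). The level at 8 h was below that at 4 h, with a difference of -0.59 (limma adjusted p = 0.00552), and below that at 70 min, with a difference of -2.82 (limma adjusted p = 1.28e-10).

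**Figure D2:**
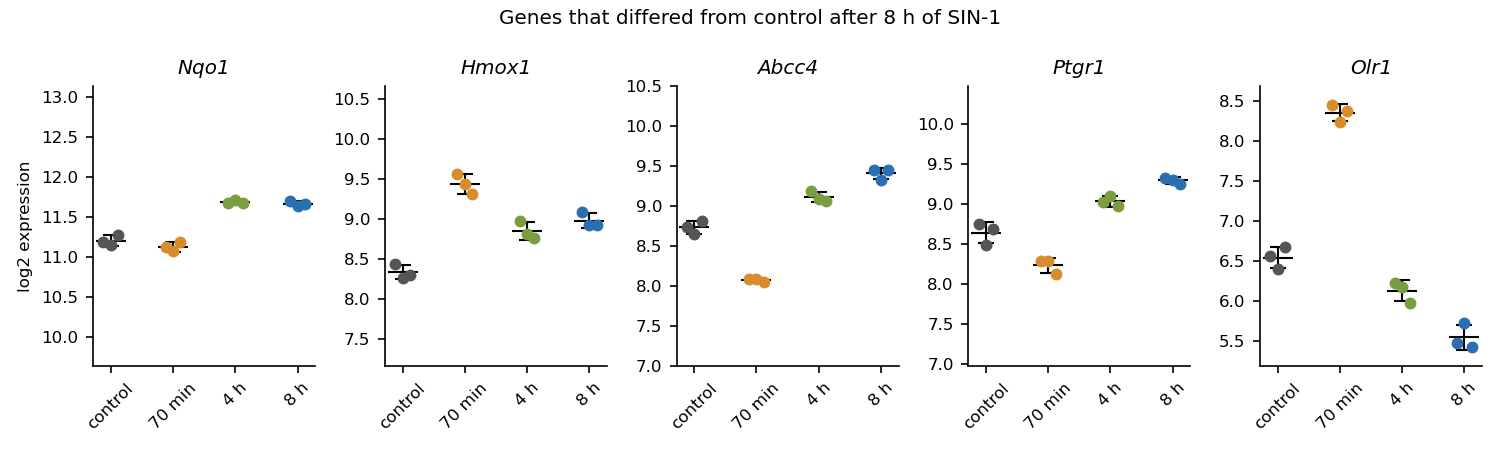
Log2 expression (vertical axes, each spanning the same range) of Nqo1, Hmox1, Abcc4, Ptgr1 and Olr1 in the 4 groups; points are single arrays, and the bar and whiskers are the mean and SD of 3 arrays. The 8 h arrays lie above the control arrays for the first 4 genes and below them for Olr1, while the 70 min arrays are high for Hmox1 and Olr1 and low for Abcc4 and Ptgr1.

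Each of the 5 called genes has 1 named probe, and whether unnamed probes measure them too was not tested. Over the 16 alternative settings run for each gene, including each control and 8 h array left out in turn, the log2 fold change of Abcc4 stayed between 0.64 and 0.72 and that of Olr1 between -1.09 and -0.94, and both passed the threshold in all 16. Ptgr1 (0.58 to 0.71), Hmox1 (0.59 to 0.69) and Nqo1 (0.44 to 0.50) passed it in 15. The exception for these was the fit without a trend in the prior variance, where their limma adjusted p-values were 0.0536, 0.0825 and 0.128. The genes just inside the threshold of 0.05 were Olr1, Ptgr1 and Hmox1, and those just outside were H4c14 (limma adjusted p = 0.091), Mt2A (0.105) and Rpl36l2 (0.126).

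Of the 30 genes of the NRF2 list, 28 were tested. Of these, 4 rose, 0 fell, and 24 did not pass the threshold. The median log2 fold change of the list was 0.23 at 8 h, beside 0.01 over all genes tested, and it was 0.17 at 4 h and -0.05 at 70 min. Among the 28, 26 were above 0 at 8 h, where 54.5% of all genes were, and 16 were higher with an unadjusted p under 0.05 and 0 lower, where 2.97% and 2.49% of all genes were. In 16 of the 28 all 8 h values lay above all control values, which 7.98% of all genes did. The 24 uncalled genes had a median of 0.20, with 22 above 0. Since the list was drawn up with earlier results of these arrays known, these counts describe it and do not test it.

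Glutathione and thioredoxin genes made up one group of the list. Txnrd1, thioredoxin reductase, had levels of 8.83, 8.84 and 8.89 in the control and 9.18, 9.19 and 9.10 at 8 h, a difference of 0.30 ± 0.06 (SE; limma adjusted p = 0.171). Gsr, glutathione reductase, differed by 0.30 ± 0.09. For Gclc, the catalytic subunit of the rate-limiting enzyme of glutathione synthesis, the control arrays were at 8.33, 8.47 and 8.47 and the 8 h arrays at 8.70, 8.61 and 8.69. Its difference of 0.24 ± 0.07 did not pass at 8 h (limma adjusted p = 0.654), whereas Gclc had risen by 0.60 at 70 min (limma adjusted p = 2.23e-05) and by 0.65 at 4 h (limma adjusted p = 6.14e-05). The level of Gclc at 8 h was lower than at 4 h, with a difference of -0.40 (limma adjusted p = 0.00389). The regulatory subunit gene Gclm differed by 0.08, the sulfiredoxin gene Srxn1 by 0.12 and the cystine importer gene Slc7a11 by 0.15, each with a 95% interval that held 0.

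Among the enzymes that reduce or conjugate reactive compounds, the aldo-keto reductase gene Akr1b8 had a difference close to that of the called genes. Its levels were 7.46, 7.40 and 7.65 in the control and 8.34, 8.16 and 7.93 at 8 h, and the groups did not overlap. The difference of 0.64 ± 0.13 had a limma adjusted p of 0.171. Ephx1, an epoxide hydrolase, was at 8.93, 8.97 and 8.96 in the control and at 9.30, 9.28 and 9.19 at 8 h, a difference of 0.30 ± 0.08 (limma adjusted p = 0.426), after -0.89 at 70 min (limma adjusted p = 5.98e-07). The glutathione transferase gene Gstp1 differed by 0.27 ± 0.08, and Osgin1, a stress-response gene, by 0.38 ± 0.12 (limma adjusted p = 0.708). In the pentose phosphate pathway, which supplies NADPH, Taldo1 differed by 0.23 ± 0.07 and Tkt by 0.25 ± 0.07, and malic enzyme, Me1, by 0.17 ± 0.06. The ferritin heavy chain gene Fth1 differed by 0.15 ± 0.05 and the light chain gene Ftl1 by 0.04 ± 0.03. The transcript of NRF2 itself, Nfe2l2, was at 10.86, 10.85 and 10.87 in the control and at 10.83, 10.83 and 10.87 at 8 h (-0.02 ± 0.05), and Keap1 differed by 0.16 ± 0.09. The lowest value of the list was that of Ugdh, UDP-glucose dehydrogenase, at -0.09 ± 0.08, after 0.68 at 70 min.

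**Figure D3:**
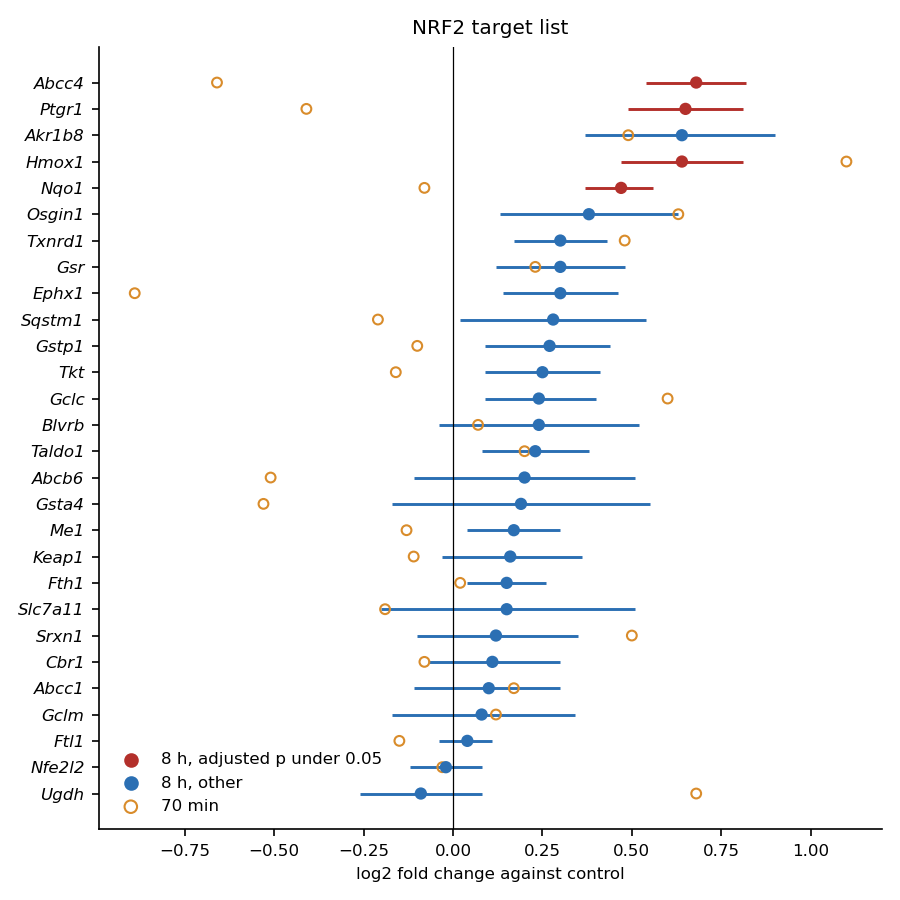
Log2 fold change against control (horizontal axis) of the 28 tested genes of the NRF2 list at 8 h, with 95% intervals from limma, and at 70 min (open circles, no interval drawn). At 8 h, 26 genes lie above 0 and the called genes are in red. Abcc4, Ptgr1 and Ephx1 were among the genes below 0 at 70 min, where the list median was -0.05.

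Neighbouring stress lists held no called gene at 8 h other than Nqo1. None of the 20 superoxide and peroxide scavenger genes was called by limma. At an unadjusted p under 0.05, 4 were higher, where 2.97% of all genes were. Of the 20, 18 were above 0, where 54.5% of all genes were, and the list median was 0.09. Glrx, the glutaredoxin gene, had the largest value among them, from 8.33, 8.29 and 8.30 to 8.79, 8.57 and 8.70 (0.38 ± 0.10, limma adjusted p = 0.426). Among 8 metallothionein and zinc genes, Mt2A, which encodes a metal-binding metallothionein, went from 10.42, 10.35 and 10.29 to 10.63, 10.70 and 10.59 (0.28 ± 0.05, limma adjusted p = 0.105), and its second probe gave 0.33. Mt1 differed by 0.22 ± 0.08 at 8 h, and at 4 h it had risen by 0.73 (limma adjusted p = 6.14e-05); its level at 8 h was lower than at 4 h by a difference of -0.51 (limma adjusted p = 0.00172).

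The aryl hydrocarbon receptor list had the highest median at 8 h, 0.28 over 7 tested genes. Nqo1, shared with the NRF2 list, was called, and the 6 uncalled genes had a median of 0.2. The list's xenobiotic-metabolising cytochrome gene Cyp1a1 was at 4.45, 4.51 and 4.85 in the control. It was at 6.43, 6.49 and 6.19 at 4 h and at 4.77, 5.08 and 5.21 at 8 h. The 4 h arrays were the highest, and the 8 h arrays overlapped with the control. Cyp1a1 differed from control by 0.42 ± 0.15 at 8 h (limma adjusted p = 0.828) and by -1.35 from 4 h (limma adjusted p = 3.78e-05). Aldh3a1, an aldehyde dehydrogenase gene, differed by 0.45 ± 0.10 at 8 h (limma adjusted p = 0.241), the receptor's repressor Ahrr by 0.28 ± 0.11, and the receptor gene Ahr by -0.26 ± 0.06 (limma adjusted p = 0.385). Of 20 nitric oxide and cGMP genes none was called by limma. At an unadjusted p under 0.05, 0 were higher and 2 lower, where 2.97% and 2.49% of all genes were. Ddah1 and Ddah2 encode the enzymes that degrade asymmetric dimethylarginine, an inhibitor of nitric oxide synthase. They differed by 0.02 ± 0.06 and 0.10 ± 0.07 at 8 h, beside 0.68 and -1.17 at 70 min.

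Among other genes ranked by p that did not pass, Adh7, an alcohol and retinol dehydrogenase gene, was at 8.05, 7.94 and 8.10 in the control and at 8.33, 8.43 and 8.61 at 8 h (0.43 ± 0.08, limma adjusted p = 0.171), after -0.95 at 70 min. Slc48a1, which encodes the heme transporter HRG1, differed by 0.34 ± 0.07 (limma adjusted p = 0.171). Tnfrsf11b, the gene of osteoprotegerin, a secreted decoy receptor, also differed by 0.34 ± 0.07, from 10.24, 10.09 and 10.17 to 10.36, 10.60 and 10.55. It had been lower than control at 70 min (-0.49) and at 4 h (-0.48), and its level at 8 h exceeded that at 4 h by 0.82 (limma adjusted p = 3.93e-06). The 8 h arrays of Adh7, Slc48a1 and Tnfrsf11b all lay above the control arrays. The ribosomal protein gene Rpl36l2 differed by 0.23 ± 0.04; transcripts of near-identical ribosomal protein genes can share a probe, so that value is uncertain.

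On the lower side, the histone gene H4c14 came closest to the threshold. Its levels were 10.19, 9.88 and 9.95 in the control and 9.51, 9.25 and 9.37 at 8 h, a difference of -0.63 ± 0.11 (limma adjusted p = 0.091), after 0.47 at both 70 min and 4 h. It passed the threshold with array weights (limma adjusted p = 0.00223), with only the 6 arrays compared (0.0196) and with the replicate number as a block (0.0333). It also passed without the 3 arrays of highest median (0.046), and its adjusted p ran up to 0.66 over the alternatives. Histone genes are near-identical copies, so that its signal may hold that of others. Lipid genes were among the next: Elovl6, a fatty acid elongase gene, was at 8.04, 7.95 and 8.19 in the control and at 7.32, 7.37 and 7.65 at 8 h (-0.61 ± 0.13, limma adjusted p = 0.2). Idi1, an isomerase gene of cholesterol synthesis, was at 7.03, 6.72 and 6.95 in the control and at 6.01, 6.26 and 6.46 at 8 h (-0.65 ± 0.14, limma adjusted p = 0.2). For both, all 8 h arrays lay below the control arrays. Nrp1, a semaphorin and growth factor co-receptor gene, differed by -0.34 ± 0.08, Deptor, the gene of an mTOR inhibitor, by -0.30 ± 0.07, Ccn4 by -0.26 ± 0.06, Rorb by -0.36 ± 0.08 and Rpph1, the RNA of ribonuclease P, by -0.43 ± 0.10, with limma adjusted p-values from 0.207 to 0.275. Fv1 differed by -0.89 ± 0.19 on its brighter probe (limma adjusted p = 0.2) and by 0.12 on its other probe, so its probes disagree.

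The genes with the largest changes at 70 min were followed to 8 h, with the same control arrays at each time. The 10 higher were Nr4a1, Nr4a3, Nr4a2, Olr1, Hmga2, Mybl2, Id2, Sik1, Cyp1b1 and Glb1l2, with log2 fold changes of 1.23 to 2.38 at 70 min and -1.0 to 0.12 at 8 h. Since they were chosen on the 70 min and control arrays, a level nearer to control at another time is a description and was not tested. At 8 h, 9 had a 95% interval against control that held 0, and Olr1 was the exception. Nr4a1, an orphan nuclear receptor and immediate early gene, had levels of 5.21, 5.35 and 5.64 in the control and 5.31, 5.57 and 5.38 at 8 h (0.02 ± 0.13), after 2.38 at 70 min and -0.29 at 4 h. The 8 h and control arrays overlapped. Mybl2, a cell cycle transcription factor gene, differed by 0.09 ± 0.11 at 8 h after 0.90 at 4 h, and Id2, an inhibitor of helix-loop-helix factors, by 0.00 ± 0.14 after 0.94.

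The 10 lower were Akr1c14, Edn1, Epha7, Map2k6, Omd, Pi15, Scara5, Sema3a, Sema3d and Slc2a12, with log2 fold changes of -2.55 to -1.58 at 70 min and -0.56 to 0.41 at 8 h. Chosen in the same way, none was called at 8 h against control, where the smallest limma adjusted p was 0.807. Of the 10, 4 had an unadjusted p under 0.05, where 5.47% of all genes had. In 4 of the 10 the 8 h values did not overlap with the control values. Of all genes, 7.98% lay wholly above the control and 5.24% wholly below it. The 95% interval held 0 for 6 of the 10. Edn1, which encodes the vasoconstrictor endothelin 1, was at 8.83, 8.85 and 8.75 in the control and at 8.61, 8.72 and 8.46 at 8 h (-0.21 ± 0.11), after -2.04 at 70 min and -1.20 at 4 h. Map2k6, a kinase gene upstream of p38, was at 5.85, 5.60 and 5.94 in the control and at 6.22, 6.12 and 6.27 at 8 h (0.41 ± 0.15, limma adjusted p = 0.892), so its 8 h arrays lay above the control. Scara5, a scavenger and ferritin receptor gene, likewise stood at 0.22 ± 0.08 (limma adjusted p = 0.807) after -1.58. Pi15, a protease inhibitor gene with the deepest fall at 70 min, was at 8.24, 8.29 and 8.40 in the control and at 7.37, 7.79 and 8.09 at 8 h (-0.56 ± 0.21, limma adjusted p = 0.88), all 8 h arrays below the control and replicate 1 the lowest.

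**Figure D4:**
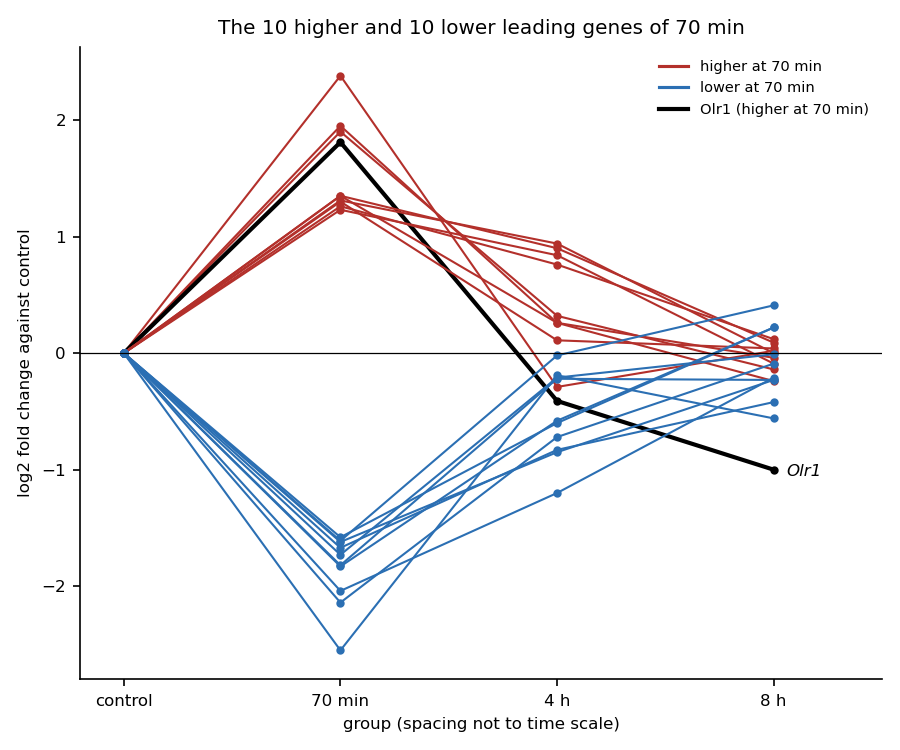
Log2 fold change against control (vertical axis) of the 10 higher and 10 lower leading genes of 70 min at each time, set at equal spacing rather than to a time scale; lines join the means of a gene over 3 arrays. At 70 min the genes lie between -2.55 and 2.38 and at 8 h between -1.0 and 0.41, with Olr1 (black) the lowest at 8 h.

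Across 49 gene lists with 896 of 1007 symbols tested, 2 lists held a called gene at 8 h, the NRF2 list and, through Nqo1, the aryl hydrocarbon receptor list. At 4 h 39 lists held one and at 70 min 45 did, against the same control arrays. Of all genes, 0.0275% were called at 8 h, 3.85% at 4 h and 14.6% at 70 min. The counts of lists rise with these shares and were not tested. The list medians at 8 h ran from -0.10 to 0.28, and 47 lay within 0.1 of 0 in either direction, against 32 at 4 h and 29 at 70 min.

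**Figure D5:**
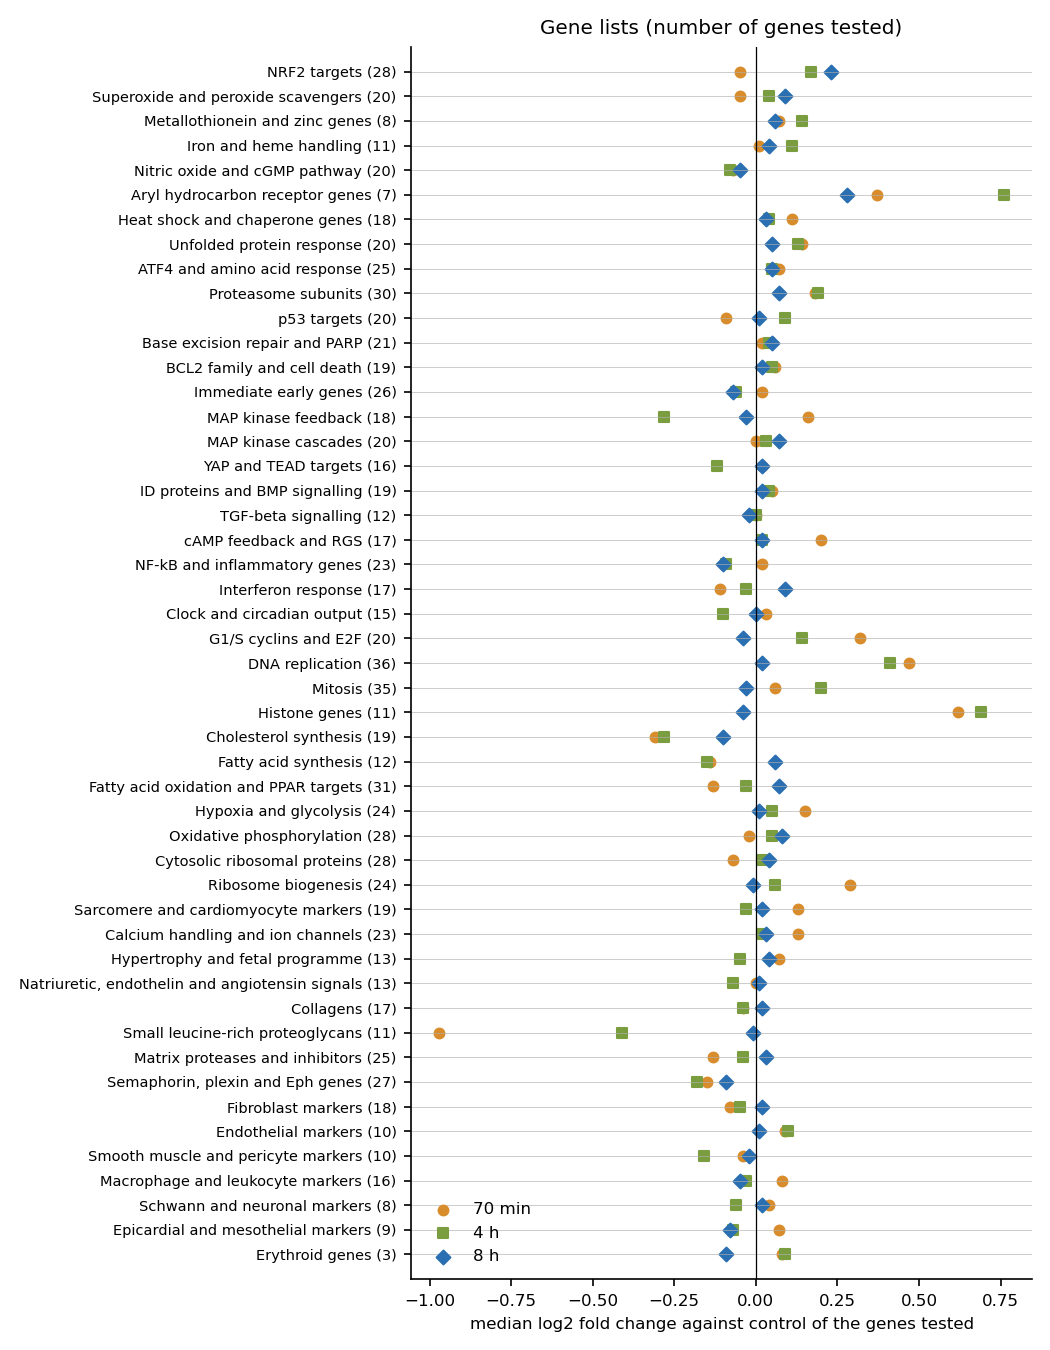
Median log2 fold change against control (horizontal axis) of the tested genes of 49 lists at 70 min, 4 h and 8 h; the number of genes tested stands in parentheses. At 8 h 47 medians lie within 0.1 of 0, and those of the NRF2 list (0.23) and the aryl hydrocarbon receptor list (0.28) lie farther out; at 70 min the proteoglycan list is lowest.

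Signalling genes were among those whose level at 8 h differed from that at earlier times. None of the 26 immediate early genes was called by limma at 8 h against control. At an unadjusted p under 0.05, 1 was higher and 1 lower, where 2.97% and 2.49% of all genes were. Of the 26, 6 were called higher and 1 lower at 8 h than at 4 h, where 1.97% and 1.54% of all genes were. Egr1, a zinc finger immediate early factor, was at 8.39, 8.36 and 8.36 in the control, 7.11, 7.07 and 6.86 at 4 h and 8.40, 8.27 and 8.12 at 8 h. Its 8 h arrays were far above the 4 h arrays (by 1.25, limma adjusted p = 1.21e-06) and differed from control by -0.11 ± 0.09. Fos, a subunit of AP-1, was at 6.34, 6.46 and 6.39 in the control and at 6.19, 5.64 and 5.85 at 8 h, all below the control (-0.51 ± 0.15, limma adjusted p = 0.654). Of 16 YAP and TEAD targets 0 were called against control while 7 were higher and 2 lower at 8 h than at 4 h. Ankrd1, a stretch-responsive gene of muscle, was among the higher, at 9.18, 9.03 and 9.15 in the control, 7.81, 7.66 and 7.76 at 4 h and 9.25, 9.24 and 9.12 at 8 h. Its level at 8 h exceeded that at 4 h by 1.46 (limma adjusted p = 5.43e-09) and overlapped with the control (0.08 ± 0.07). Of 18 genes of MAP kinase feedback, 0 were called and 0 passed an unadjusted p under 0.05 against control, and 5 were higher and 1 lower than at 4 h.

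Of 36 DNA replication genes, limma called 19 lower and 0 higher at 8 h than at 4 h (1.54% and 1.97% of all genes), and 22 lower and 0 higher than at 70 min (6.43% and 9.56% of all genes). Against control at 8 h it called none, and the list median was 0.02, after 0.41 at 4 h and 0.47 at 70 min. At an unadjusted p under 0.05, 0 were higher and 1 lower, where 2.97% and 2.49% of all genes were. Pcna, the sliding clamp of DNA polymerase, was at 8.75, 8.75 and 8.94 in the control, 9.69, 9.60 and 9.64 at 70 min, 9.53, 9.45 and 9.39 at 4 h and 8.67, 8.60 and 8.79 at 8 h. The 8 h arrays overlapped with the control (-0.12 ± 0.07), and the level had fallen by 0.77 from 4 h (limma adjusted p = 8.23e-06). The helicase gene Mcm5 differed from control by -0.04 ± 0.08 and from 4 h by -0.76 (limma adjusted p = 4.41e-05). Cdc6, a licensing factor gene, was the 1 with the unadjusted p under 0.05, at 5.31, 5.14 and 5.11 in the control and 4.77, 4.61 and 4.60 at 8 h (-0.52 ± 0.12, limma adjusted p = 0.236). Of the 11 tested genes of the histone list, 6 were lower and 0 higher at 8 h than at 4 h, and 6 lower and 0 higher than at 70 min. Limma called none of the 11 against control, with 0 at an unadjusted p under 0.05. Outside that list, H2bc8, like H4c14, had lower values at 8 h. It was at 8.82, 8.68 and 8.55 in the control and at 8.44, 8.47 and 8.08 at 8 h, all below the control (-0.35 ± 0.11, limma adjusted p = 0.753). The histone genes H1f5 (-0.01 ± 0.13) and H2ac4 (-0.07 ± 0.12) overlapped with the control. All these histone genes were named for a lower level at 8 h than at 4 h. The proliferation marker Mki67 was at 10.17, 9.87 and 9.97 in the control and at 8.80, 9.35 and 9.71 at 8 h (-0.71 ± 0.22, limma adjusted p = 0.654), with replicate 1 the lowest. The cell cycle inhibitor gene Cdkn1a, a p53 target, differed by -0.10 ± 0.06 from control and by -0.51 from 4 h (limma adjusted p = 3.78e-05).

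In metabolism, limma called none of the 31 PPAR targets and genes of fatty acid oxidation at 8 h, and their median was 0.07. At an unadjusted p under 0.05, 6 were higher and 0 lower, where 2.97% and 2.49% of all genes were. Of the 31, 16 were higher and 2 lower at 8 h than at 70 min, where 9.56% and 6.43% of all genes were. Eci2, an isomerase gene of fatty acid oxidation, was at 8.50, 8.65 and 8.62 in the control and 8.81, 8.95 and 8.85 at 8 h (0.28 ± 0.08, limma adjusted p = 0.495). The 19 cholesterol synthesis genes had a median of -0.10, and none was called by limma. Of them 17 were below 0 and 2 above it, where 54.5% of all genes were above 0. At an unadjusted p under 0.05, 3 were lower and 0 higher, where 2.49% and 2.97% of all genes were. At 8 h 4 were called higher and 0 lower than at 4 h (1.97% and 1.54% of all genes). Against 70 min, 8 were higher and 1 lower at 8 h (9.56% and 6.43% of all genes). The glycolytic gene Hk2, hexokinase 2, differed by 0.17 ± 0.09 at 8 h after 1.16 at 70 min. The 24 genes of ribosome biogenesis had a median of -0.01, and 16 of them were lower and 1 higher at 8 h than at 70 min, beside the same 6.43% and 9.56% of all genes. Of 30 proteasome subunit genes none was called by limma against control, 25 were above 0 and 2 passed an unadjusted p under 0.05, both higher. Of all genes, 54.5% were above 0 and 2.97% were higher at that p.

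The medians of all stress lists at 8 h ran from -0.05 for the nitric oxide and cGMP genes to 0.28 for the aryl hydrocarbon receptor genes. Among stress and damage lists, the median was 0.03 for 18 heat shock genes and 0.05 for 20 genes of the unfolded protein response. It was 0.05 for 25 ATF4 genes, 0.01 for 20 p53 targets and 0.05 for 21 base excision repair genes. In these lists limma called none. At an unadjusted p under 0.05, 4 of the heat shock genes and 2 of the ATF4 genes were higher. Of the unfolded protein genes 1 was lower, as was 1 of the repair genes, and 1 p53 target lay on each side. Of all genes, 2.97% were higher and 2.49% lower at that p. The stress factor Atf3 differed by 0.03 ± 0.13 and the stress cytokine gene Gdf15 by -0.04 ± 0.13. Of 23 NF-kB and inflammatory genes none was called by limma, 4 were lower and 0 higher at an unadjusted p under 0.05, and the median was -0.10; Il6, the gene of interleukin 6, was at 5.70, 5.91 and 5.65 in the control and 5.44, 5.32 and 5.35 at 8 h (-0.38 ± 0.12, limma adjusted p = 0.71). The genes of the natriuretic peptides, Nppa and Nppb, differed by 0.05 ± 0.13 and -0.01 ± 0.11. The 11 small leucine-rich proteoglycan genes, which organise collagen fibrils, had a median of -0.01 at 8 h after -0.97 at 70 min and -0.41 at 4 h, and 5 were higher and 0 lower at 8 h than at 70 min, where 9.56% and 6.43% of all genes were. Within that list the 8 h arrays were spread: Ogn was at 11.36, 11.22 and 11.27 in the control and at 10.40, 10.91 and 11.09 at 8 h (-0.48 ± 0.16, limma adjusted p = 0.807), replicate 1 again the lowest. Replicate 1 was also the lowest 8 h array for Sema3d (8.89 against 9.51 and 9.93) and Nop58 (8.37 against 8.98 and 9.03). Among the 4 h arrays, replicate 1 was likewise the lowest for Ogn (10.27 against 10.94 and 10.76) and Sema3d (8.56 against 9.48 and 9.05). The same held for Nop58 (8.51 against 9.18 and 9.06). The part of replicate 1 in the lower values was not tested.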

How the data were processed

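Amplified total RNA was measured on 12 one-colour arrays. The authors deposited 1 table of log2 expression; the submitters' processing notes name RMA and Affymetrix Expression Console 1.3.1.187, and the log2 scale was inferred from the values (1.19 to 13.63). RMA equalises array distributions and compresses folds near background. Of 36685 probes, a single symbol was found for 18511, several for 575 (left out) and none for 17599, which are unnamed here; the brightest probe of each of 291 genes with several left 18166 genes. Symbols were checked against RefSeq genes of GRCr8, for which 18394 probes matched. Group means over all 12 arrays were fitted with limma 3.58.1 in R 4.3.3 (eBayes with trend, 8 residual degrees of freedom), two-sided, with Benjamini-Hochberg adjustment per comparison. The calculation was tested on simulated data. Figures were drawn with matplotlib 3.10.9.

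The genes and the 49 lists were chosen with earlier results of these data known. Genes named were those called at 8 h, up to 10 by smallest p in a direction with fewer than 5 called, all called or the leading member of a list, the 10 leading genes each way at 70 min, 5 each way between 8 h and 4 h, 3 on either side of the threshold and 28 fixed stress, cardiac and cycle genes; further members serve as examples. Naming by size or p required a mean in the higher group at or above 5.75 (list members and the 28 fixed genes did not), and there small RNAs, unnamed loci and receptors of the olfactory and vomeronasal families were skipped. Alternatives were the replicate number as a block, other prior variances, array weights, further normalization, brighter genes, other probe rules, the compared arrays alone, fold thresholds and each array left out. Leaving out the 3 arrays of highest median was added after the data were seen.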

Additional observations from a re-analysis of the deposited data

Results flagged for a closer look

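The called genes of 8 h differed between times of SIN-1 treatment by limma's test of the difference itself. These genes were chosen on the 8 h and control arrays. The tests between times use the same 8 h arrays and are not independent of that choice. From 70 min to 8 h the log2 level of Abcc4 was higher by 1.33, that of Ptgr1 by 1.07 and that of Nqo1 by 0.54, while Hmox1 differed by -0.46 and Olr1 by -2.82. Between 4 h and 8 h, Abcc4 differed by 0.30 and Olr1 by -0.59, and the other called genes did not pass the threshold.

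A pair of probes with no gene name here, which the comparisons of named genes do not use, passed the threshold when all 36685 probes were tested. Probe 17705239 was at 7.99, 7.91 and 8.00 in the control and at 8.68, 8.63 and 8.72 at 8 h, a difference of 0.71 (limma adjusted p = 0.00965). Probe 17705205 was at 8.26, 8.22 and 8.13 in the control and at 8.87, 8.83 and 8.89 at 8 h, a difference of 0.66 (limma adjusted p = 0.0275). The probe of Abcc4, 17705225, has a number between those of this pair, and its difference was 0.68. Whether the pair also measures Abcc4 was not tested.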

How the results depend on the processing

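Of 18166 genes, limma called 5 at 8 h against control, and the count was 9 with the replicate block (6 higher and 3 lower, the added genes being H4c14, Mt2A, Fv1 and Rpl22-ps2), 2 without a trend in the prior variance, 37 with array weights and 68 at an unadjusted p with at least a 1.5-fold change; the cause was not tested. Leaving out an array in turn gave 5 to 6. Between 8 h and 4 h the count of 637 became 315 without a trend, 300 with arrays centred on their medians, 330 with only the 6 arrays compared, 149 with at least a 1.5-fold change and 200 with that fold at an unadjusted p. Leaving out an array in turn gave 299 (without 8 h replicate 2) to 504. Between 8 h and 70 min the count of 2904 became 1181 without the 3 arrays of highest median, 758 with at least a 1.5-fold change and 782 with that fold at an unadjusted p; leaving out an array in turn gave 2003 to 3386. Centring moved the share of higher calls from 56.2% to 66.3% between 8 h and 4 h and from 59.8% to 77.0% between 8 h and 70 min.

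Across genes, the deviations of same-numbered control and 8 h arrays correlated at -0.11, -0.06 and -0.02. Those of same-numbered 70 min and 8 h arrays correlated at -0.18, -0.08 and 0.05. For 4 h and 8 h arrays the values were 0.23, 0.12 and 0.01 for the same number and -0.26 to 0.18 for other numbers. Whether the replicate number pairs samples was not tested. With the replicate block the counts between 8 h and the earlier times were 622 and 2889. The median of the NRF2 list at 8 h was 0.23, and 0.19 to 0.27 with an array left out. Of the list medians recomputed at 8 h, 467 moved by less than the spread between replicates and 12 by more. Signal limits the dimmer genes: the 95% interval lay within 1.5-fold for 96% of the brighter genes and 91.4% of all.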
